A study of Oryza sativa with 12 samples.

Results

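The genes described here are 3 beta-tubulins of rice, OsTUB1 (Os01g0282800), OsTUB4 (Os01g0805900) and TUB8 (Os03g0661300), and the actin-depolymerizing factor OsADF3 (Os03g0820500). They were picked by gene name from the union of 4 deposited tables, where they are 4 of 13674 genes. All 4 had values in all 12 libraries. Leaf RNA of 2 rice varieties was sequenced, QJ10 (QJ below) and LJ31 (LJ below). Each variety was sampled as a control and after salt-alkali stress with bicarbonate (200 mmol/L), which gave stressed QJ, control QJ, stressed LJ and control LJ groups of 3 libraries each. The series record calls the libraries of a group biological replicates. How long the stress lasted, how old the leaves were and how many plants made up a library is not given in the sources used here.

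Microtubules are hollow filaments built from paired alpha- and beta-tubulin. In plants they steer the deposition of cellulose, shape growing cells, and form the spindle and the plate that divides a cell. Actin filaments carry transport and growth at the cell surface. Actin-depolymerizing factors sever and disassemble those filaments, and their turnover is one route by which plant cells remodel the cytoskeleton under stress. TUB8 is known in rice as a beta-tubulin of anthers, and OsADF3 as a factor whose transcript responds to drought and other stresses.

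Each deposited table covers 1 pair of groups and was cut by the authors to genes past their test: no adjusted p is above 0.05 and no log2 fold change is smaller than 1.00 in either direction. The 4 genes were in view because of these same contrasts, so levels and folds between pairs of groups are given as a description without a test. In both stress tables the table's name and the column headers give different varieties, and the headers were followed, so which variety is which rests on them. The depth of the libraries is unknown, so counting error cannot be stated. Summed FPKM over the listed genes ran from 302273 to 304097 in stressed QJ, 310974 to 312214 in control QJ, 521586 to 522465 in stressed LJ and 375808 to 376025 in control LJ, which covers part of each library. FPKM counts fragments per transcript length and library size. Log2 differences were taken on log2(FPKM + 1), which makes differences between low values smaller than their ratio. Leaf markers were abundant in all groups: the 16 photosynthesis genes of the leaf list with values everywhere summed to 4490.0 to 4602 FPKM in stressed QJ, 15257 to 15514 in control QJ, 2031 to 2099 in stressed LJ and 11312 to 11398 in control LJ.

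The 3 beta-tubulins shared 1 outline: control LJ leaves stood far above the other 3 groups, and stressed LJ leaves were nearer to QJ than to control LJ. OsTUB1 was the clearest case. Its FPKM was 1.77, 2.52 and 2.59 in the stressed QJ libraries and 2.37, 3.20 and 2.57 in the control QJ libraries. It was 4.53, 4.62 and 5.55 in the stressed LJ libraries, against 56.32, 59.43 and 59.05 in the control LJ libraries. From low to high the groups ran stressed QJ, control QJ, stressed LJ, control LJ, and only the 2 QJ groups overlapped. The mean in stressed LJ was 4.90 ± 0.565 FPKM, against 58.3 ± 1.70 FPKM in control LJ (SD, n = 3 each), 11.9 times lower (log2 difference -3.33, SE 0.0814). In QJ the means were 2.29 ± 0.455 FPKM under stress and 2.71 ± 0.433 FPKM in controls (log2 difference -0.18, SE 0.153), and the gene was not in the authors' table for that pair. This small difference was -0.06 without stressed QJ replicate 1 and -0.08 without control QJ replicate 2. In bulk leaf RNA, fewer cells that express a gene and less RNA per cell cannot be told apart.

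OsTUB4 was the most abundant of the 3 beta-tubulins in every group and ordered the groups as OsTUB1 did. Its FPKM was 4.70, 6.13 and 5.35 in stressed QJ and 6.60, 8.44 and 6.62 in control QJ. It was 11.66, 12.36 and 12.57 in stressed LJ, against 82.81, 84.59 and 86.47 in control LJ. No neighbouring groups overlapped, although the highest stressed QJ library and the lowest control QJ library lay close together. Stressed LJ averaged 12.2 ± 0.476 FPKM and control LJ 84.6 ± 1.83 FPKM (SD, n = 3 each), 6.94 times lower under stress (log2 difference -2.70, SE 0.0352). Stressed QJ averaged 5.39 ± 0.716 FPKM and control QJ 7.22 ± 1.06 FPKM, a log2 difference of -0.36 (SE 0.139), and the authors' table for QJ stress does not hold the gene.

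TUB8 had the lowest mean of the 3 in stressed QJ, stressed LJ and control LJ, while in control QJ its mean was above that of OsTUB1. Unlike the other 2 it was listed by the authors in all 4 tables. Its FPKM was 1.47, 1.26 and 1.32 in stressed QJ and 2.90, 2.99 and 3.93 in control QJ. It was 2.79, 3.21 and 3.37 in stressed LJ, against 13.03, 12.51 and 12.85 in control LJ. Control QJ and stressed LJ overlapped, and stressed QJ lay below all other groups. The stressed QJ mean of 1.35 ± 0.108 FPKM was 2.42 times lower than the 3.27 ± 0.570 FPKM of control QJ (SD, n = 3 each). The stressed LJ mean of 3.12 ± 0.300 FPKM was 4.10 times lower than the 12.8 ± 0.264 FPKM of control LJ. On the log2(FPKM + 1) scale these differences were -0.86 (SE 0.114) in QJ and -1.74 (SE 0.0635) in LJ.

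Set side by side, QJ had lower beta-tubulin levels than LJ both under stress and in controls. In stressed leaves the QJ mean was 2.14 times lower for OsTUB1, 2.26 times lower for OsTUB4 and 2.31 times lower for TUB8, with log2 differences of -0.85 (SE 0.143), -1.05 (SE 0.0981) and -0.81 (SE 0.0723). In control leaves the gap was wider: the QJ mean was 21.5 times lower for OsTUB1, 11.7 times lower for OsTUB4 and 3.91 times lower for TUB8, with log2 differences of -4.00 (SE 0.0981), -3.39 (SE 0.105) and -1.70 (SE 0.109). The 3 genes thus differed between varieties by similar ratios under stress and by unequal ratios in controls.

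OsADF3 went the opposite way under stress and moved by far more. Its FPKM was 322.53, 296.87 and 292.25 in the stressed QJ libraries, against 2.70, 4.09 and 5.03 in control QJ. It was 426.70, 417.80 and 394.57 in the stressed LJ libraries, against 0.62, 0.00 and 2.03 in control LJ. The stressed groups of both varieties stood far above their controls, with 1 control LJ library listed at 0. Stressed QJ averaged 304 ± 16.3 FPKM and control QJ 3.94 ± 1.17 FPKM (SD, n = 3 each), 77.1 times higher under stress (log2 difference 5.97, SE 0.211). Stressed LJ averaged 413 ± 16.6 FPKM, while the control LJ libraries held too little for a firm ratio (log2 difference 7.93, SE 0.464).

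In the authors' deposited table the log2 fold change of OsADF3 was 6.13 in QJ, rank 68 among 2204 genes listed as higher under stress, and 8.99 in LJ, rank 24 among 3407. Between varieties OsADF3 differed little under stress: the QJ mean was 1.36 times lower than the LJ mean (log2 difference -0.44, SE 0.0554), and the 2 groups did not overlap. In controls all 3 QJ libraries were above all 3 LJ libraries, but the size of the gap rests on values near 0: the log2 difference was 1.51 (SE 0.507), and it was 2.87 with 0.1 added to each FPKM in place of 1 and 0.61 with 5 added. Neither of the authors' tables between varieties holds the gene.

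**Figure D1:**
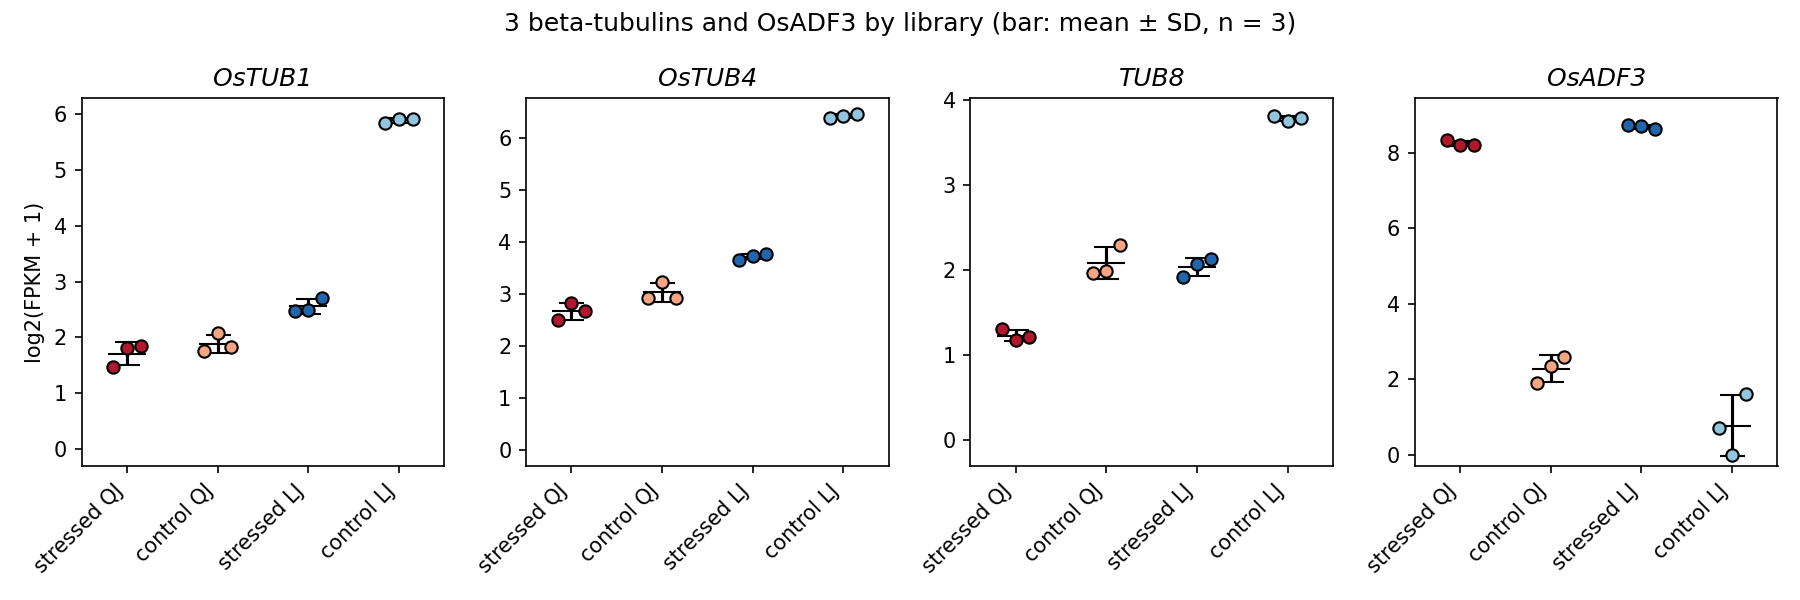
Each point is 1 library and its height is log2(FPKM + 1) of the gene named above the panel, for stressed QJ, control QJ, stressed LJ and control LJ; bars give the mean and SD of 3 libraries. The beta-tubulins are highest in control LJ (58.3, 84.6 and 12.8 FPKM on average), and OsADF3 is high in both stressed groups (304 and 413 FPKM).

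Over the 4 genes, stressed and control QJ did not overlap for OsTUB4, TUB8 and OsADF3, 3 of 4, where 80.2% of the 7012 genes with values in both groups did not overlap. Stressed and control LJ did not overlap for 4 of 4, against 89.2% of 9553 genes. Stressed QJ and stressed LJ did not overlap for 4 of 4, against 92.7% of 8075 genes, and the control groups for 4 of 4, against 92.6% of 9176 genes. Separation of the groups was therefore common among all listed genes. Of the values the authors listed for these genes, the smallest in size was the log2 fold change of -1.42 for TUB8 in QJ stress. For pairs the authors did not list, the log2 ratio of means was -0.24 for OsTUB1 and -0.42 for OsTUB4 in QJ stress. For OsADF3 it was -0.44 between stressed QJ and stressed LJ and 2.16 between control QJ and control LJ. The value of 2.16 is beyond the authors' limit on the fold change, and why the gene is not listed there is not known.

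Since FPKM is per length, the 3 beta-tubulins can be summed. The sum was 9.04 ± 1.00 FPKM in stressed QJ, 13.2 ± 1.38 in control QJ, 20.2 ± 1.26 in stressed LJ and 156 ± 3.19 in control LJ (SD, n = 3 each). OsTUB4 made up 59.6% ± 2.07 of the sum in stressed QJ, 54.6% ± 3.72 in control QJ, 60.4% ± 1.64 in stressed LJ and 54.4% ± 0.286 in control LJ. It thus supplied the larger part in each group.

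The share of OsTUB1 was 25.2% ± 2.84 in stressed QJ, 20.5% ± 1.22 in control QJ, 24.2% ± 1.50 in stressed LJ and 37.4% ± 0.491 in control LJ. In control LJ every library had an OsTUB1 share of at least 37.0%, and in the other groups none was above 28.0%. TUB8 went the other way, with 15.2% ± 3.00 in stressed QJ, 24.9% ± 4.78 in control QJ, 15.4% ± 0.639 in stressed LJ and 8.22% ± 0.301 in control LJ. The ratio of OsTUB1 to OsTUB4 lay between 0.377 and 0.484 in stressed QJ, 0.359 and 0.388 in control QJ, 0.374 and 0.442 in stressed LJ, and 0.680 and 0.703 in control LJ. The make-up in control LJ therefore stood apart from that in the other 3 groups, and the stressed LJ shares lay within the range of stressed QJ for all 3 genes. Beta-tubulin genes are close copies of each other, and the treatment of reads shared between copies is not stated, so the split between the 3 carries that uncertainty.

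**Figure D2:**
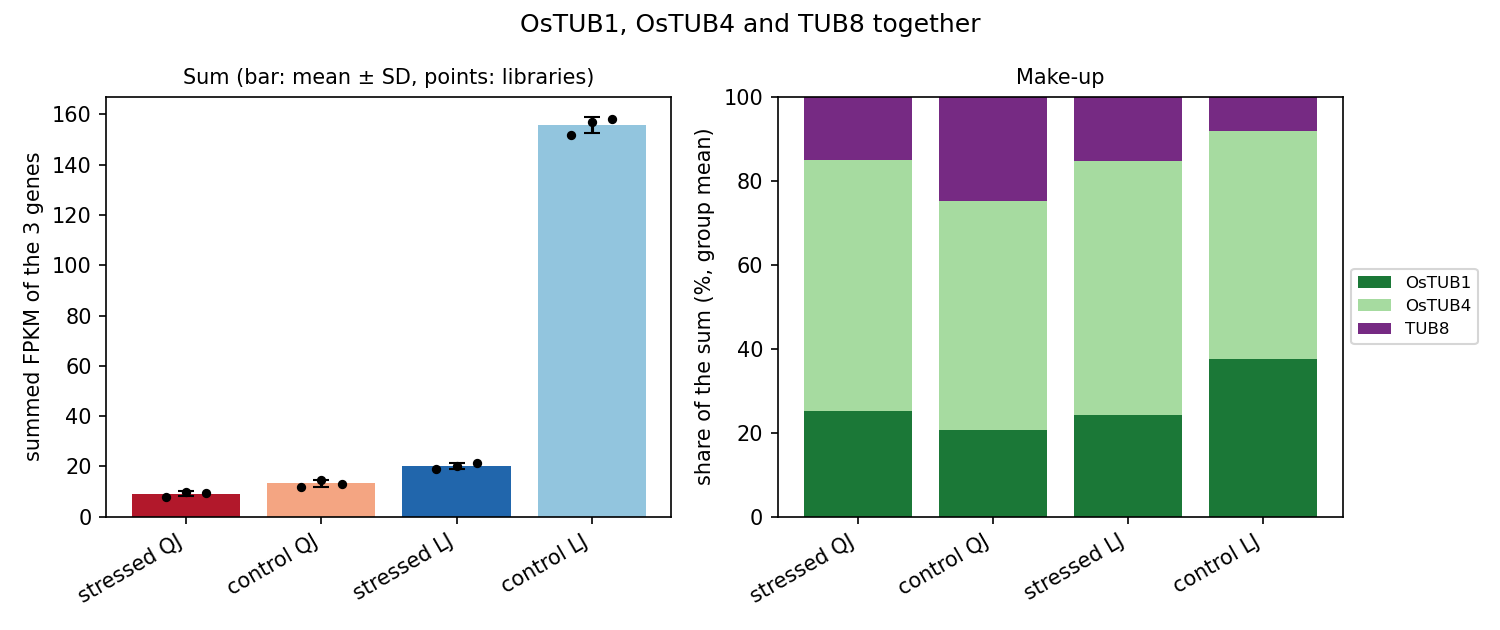
Left, the summed FPKM of OsTUB1, OsTUB4 and TUB8 in each group, with bars for the mean, whiskers for the SD and a point per library; right, the mean share of each gene in that sum, in percent. The sum reaches 156 FPKM in control LJ and is at most 20.2 FPKM on average elsewhere, and the OsTUB1 share is 37.4% in control LJ.

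Whether the 2 varieties differed in their response to stress was tested as the stress difference in QJ minus that in LJ. No deposited table was selected on this contrast itself. It is, however, the difference of 2 contrasts that tables from the same libraries were selected on. It was fitted with limma on log2(FPKM + 1) over the 5170 genes that had values in all libraries and at least 1 FPKM in at least 3 of them. A gene has values in all libraries only if the authors listed it in tables that together cover every group. The tested genes were thus selected for differences between groups, and the p-values are not free of that selection. OsTUB1 and OsTUB4 were listed for stress in LJ and not in QJ, which favours a difference of responses. OsTUB1 differed by 3.16 (SE 0.165, limma adjusted p = 3.62e-09): its difference was -0.18 in QJ and -3.33 in LJ. OsTUB4 differed by 2.34 (SE 0.134, limma adjusted p = 9.18e-09), from -0.36 in QJ and -2.70 in LJ. TUB8 differed by 0.89 (SE 0.143, limma adjusted p = 0.000134), from -0.86 in QJ and -1.74 in LJ. For the 3 beta-tubulins the stress decrease was thus larger in LJ.

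OsADF3 differed by -1.95 (SE 0.422, limma adjusted p = 0.00130), from 5.97 in QJ and 7.93 in LJ, so its stress increase was larger in LJ on this scale. This value leans on the low control levels: it was -3.32 with 0.1 added to each FPKM in place of 1, and -1.05 with 5 added. The background for these 4 calls is high, since 66.4% of the tested genes passed. Of the tested genes 41.4% passed with a higher stress difference in QJ than in LJ, and 25.0% with a lower one. The median over all tested genes was 0.21, and centring each library on its median gave 2.86, 2.04, 0.59 and -2.25 for OsTUB1, OsTUB4, TUB8 and OsADF3. The p-values measure the spread between these libraries.

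Of the cytoskeleton list of 48 genes, 16 had values everywhere and passed the level filter. Of these 12 passed with a higher stress difference in QJ than in LJ, 2 passed with a lower one and 2 did not pass. This is not a count of levels. Over all 5170 tested genes 41.4% passed with a higher and 25.0% with a lower stress difference in QJ. Without the 4 genes described above the counts were 9 higher, 1 lower and 2 not passing of 12. These counts only describe the genes that passed the level filter: VLN1 (Os05g0153000), a villin that bundles actin, reached 1 FPKM in the 3 control LJ libraries and in no other. It was thus admitted by the group in which it was high. It is in the counts, but its test is not given. The kinesins KIN1 (Os08g0117000) and KIN7J (Os09g0528000) reached 1 FPKM in every LJ library and in no QJ library. They were admitted by LJ alone. They too are in the counts, among those with a higher stress difference in QJ, and their tests are not given. The kinesin KIN14H (Os04g0629700), which reached that level in control QJ and both LJ groups, differed by 1.86 (SE 0.141, limma adjusted p = 1.30e-07). The 1 other gene with a lower stress difference in QJ was again an actin-depolymerizing factor, OsADF5 (Os03g0243100), at -0.61 (SE 0.0671, limma adjusted p = 4.39e-06). Not passing were OsTON1b at -0.08 (SE 0.0892) and OsSCAR4. OsSCAR4 reached 1 FPKM in 1 stressed LJ and 2 control LJ libraries and in no QJ library, so its value is not given either.

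**Figure D3:**
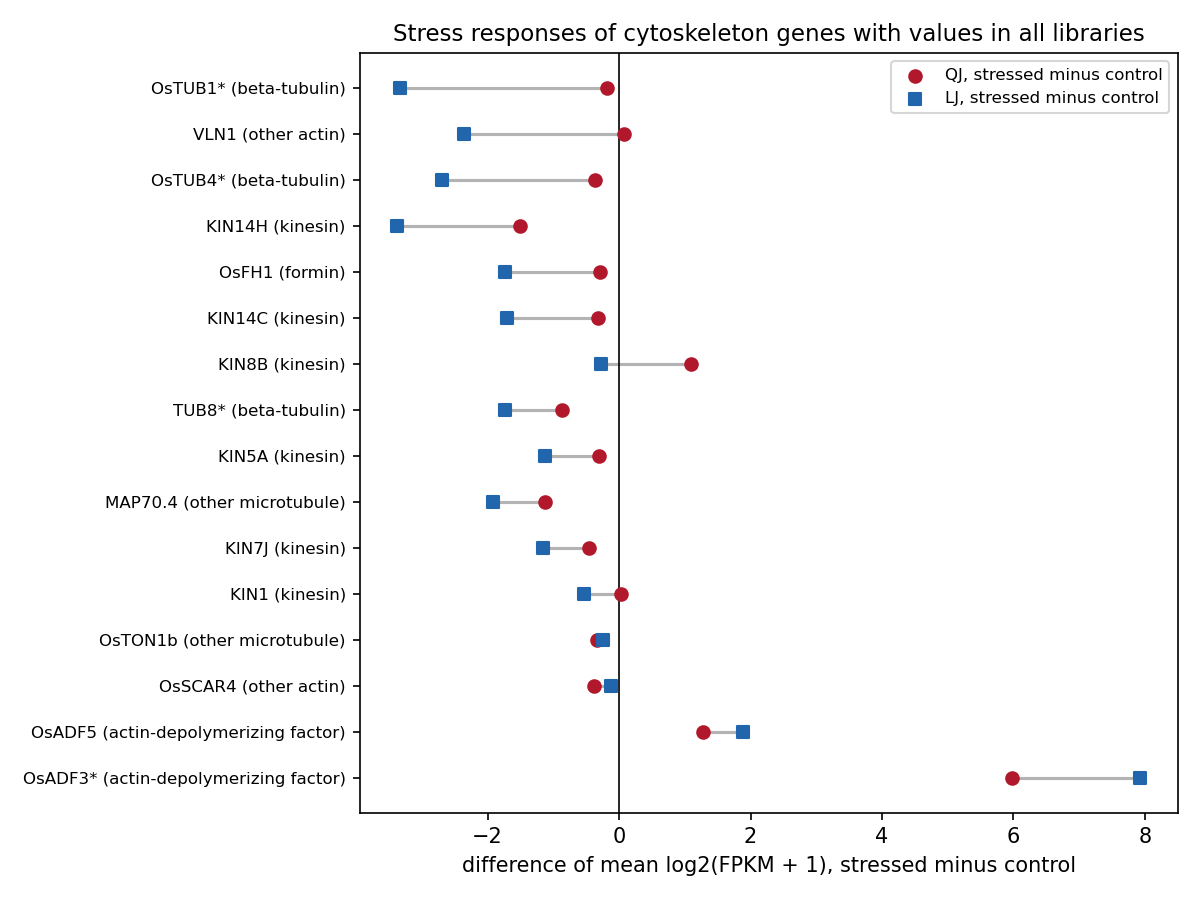
The stress difference of mean log2(FPKM + 1), stressed minus control, in QJ (circles) and LJ (squares) for the 16 cytoskeleton genes tested; asterisks mark the 4 genes described here and the grey line joins the 2 values of a gene. OsTUB1 has the widest gap on the falling side (-0.18 in QJ and -3.33 in LJ), and OsADF3 lies far to the right of all others. VLN1, OsSCAR4, KIN1 and KIN7J are drawn although only LJ libraries carried them past the level filter.

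The other beta-tubulins in the deposited tables, TUB6 and OsTUB5, were also highest in control LJ among the groups with values. The RefSeq gene table (assembly ASM3414082v1, used for names only) holds 8 numbered beta-tubulin genes, of which 5 are in the deposited tables. Numbers 2, 3 and 7 are not, so their levels are not known and the family as a whole is not described. TUB6 (Os05g0413200) averaged 11.1 ± 0.739 FPKM in control QJ, and 13.1 ± 0.436 FPKM in stressed LJ against 47.8 ± 1.08 FPKM in control LJ (SD, n = 3 each). OsTUB5 (Os02g0167300) was listed between controls alone, with 12.6 ± 1.46 FPKM in QJ and 38.3 ± 1.19 FPKM in LJ. All 5 listed beta-tubulins were thus lower in control QJ than in control LJ, where 71.1% of the 7844 genes in the authors' deposited table were. All 4 listed for LJ stress were lower under stress, where 52.5% of 7178 listed genes were.

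Of the partner alpha-tubulins, 2 were in the tables, each in a different comparison, so their directions cannot be set against each other. OsTubA3 (Os03g0726100) was listed between controls, with 202 ± 2.92 FPKM in QJ and 419.9 ± 7.06 FPKM in LJ. TubA (Os03g0219300) was listed for LJ stress alone and was higher there, with 49.3 ± 2.14 FPKM in stressed LJ against 24.9 ± 1.59 FPKM in control LJ.

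Among actin-depolymerizing factors, 5 of the 10 numbered genes of the RefSeq table were in the deposited tables. OsADF5 was higher under stress in both varieties, with 121 ± 6.71 FPKM in stressed QJ against 49.7 ± 2.00 in control QJ, and 131 ± 3.28 FPKM in stressed LJ against 34.7 ± 1.51 in control LJ (SD, n = 3 each). The log2 differences of OsADF5 were 1.27 (SE 0.0559) in QJ and 1.89 (SE 0.0406) in LJ, in the direction of OsADF3 but smaller. OsADF7 (Os05g0113400) was lower, with 20.5 ± 0.622 FPKM in stressed LJ and 55.7 ± 1.27 FPKM in control LJ. OsADF6 and OsADF9 were also listed as lower in LJ stress, at levels of at most 1.60 FPKM on average. In the RefSeq order of genes OsADF4 lies next to OsADF3. OsADF4 is not in the deposited tables, and reads shared between such copies carry the uncertainty named above.

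**Figure D4:**
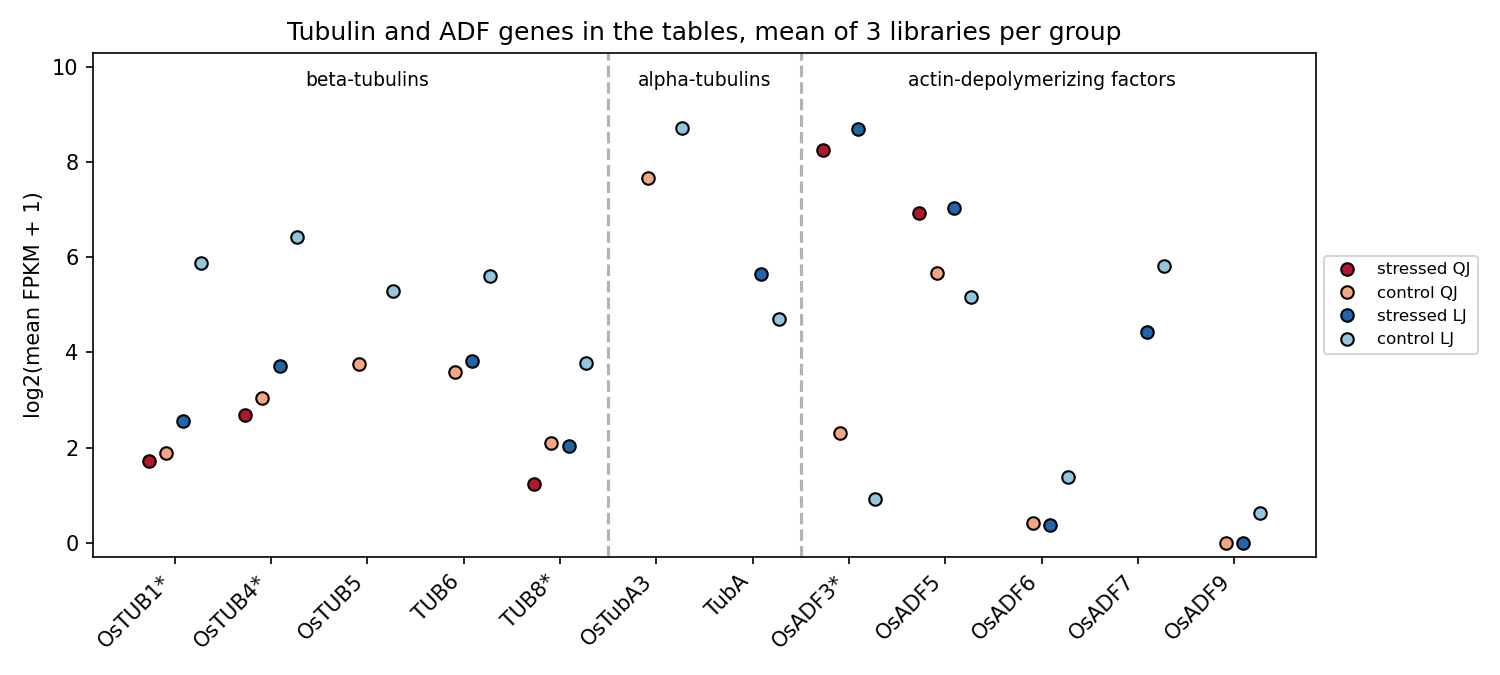
Group means of 3 libraries, as log2(mean FPKM + 1), for the 5 beta-tubulins, 2 alpha-tubulins and 5 actin-depolymerizing factors in the tables; a missing point means that no table gives that group's value for the gene, and asterisks mark the 4 genes described here. All 5 beta-tubulins are highest in control LJ among the groups with values, while OsADF3 and OsADF5 are highest in the stressed groups.

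The wider list held 26 microtubule and 22 actin genes, counted by their direction in the authors' deposited tables. For QJ stress 10 of the 48 were listed, 4 higher and 6 lower, or 60.0% lower, where 49.0% of all 4324 listed genes were lower. For LJ stress 30 were listed, 5 higher and 25 lower, or 83.3% lower, where 52.5% of all 7178 listed genes were lower. Their median log2 fold change in that table was -1.81, against -1.06 over all its genes. Between stressed groups 18 were listed and all 18 were lower in QJ, where 67.9% of 6894 genes were. Between controls 39 were listed and all 39 were lower in QJ, where 71.1% of 7844 genes were. Their median log2 fold change was -2.37 between controls, against -1.63 over all genes of the table. The authors selected these genes on the same libraries, and the comparisons within LJ and between controls share the control LJ libraries.

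By role, 15 kinesins, the motor proteins of microtubules, were in the tables. Of these 11 were listed for LJ stress, 10 lower and 1 higher, where 52.5% of all listed genes were lower. Between controls 14 were listed, all lower in QJ, where 71.1% of all listed genes were. Some of these kinesins averaged below 1 FPKM in every group with values. KIN14H averaged 1.63 ± 0.135 FPKM in stressed LJ and 26.3 ± 1.67 FPKM in control LJ (log2 difference -3.37, SE 0.0664), close to the difference of OsTUB1. The 1 kinesin listed as higher in LJ stress was KIN14J (Os05g0397900), with 7.12 ± 0.177 FPKM in stressed LJ and 2.32 ± 0.227 FPKM in control LJ. KIN14C (Os01g0744000) was lower in QJ on both sides, with 1.79 ± 0.115 FPKM in stressed QJ against 7.23 ± 1.35 in stressed LJ, and 2.49 ± 0.116 FPKM in control QJ against 25.5 ± 0.824 in control LJ. KIN8B (Os03g0773600) was listed as higher in QJ stress, with 6.75 ± 0.229 FPKM in stressed QJ and 2.62 ± 0.274 FPKM in control QJ.

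Microtubule-associated MAP70.4 (Os03g0215700) was lower under stress in both varieties, with 6.51 ± 0.0981 FPKM in stressed QJ against 15.4 ± 1.63 in control QJ, and 8.38 ± 0.593 FPKM in stressed LJ against 34.2 ± 1.25 in control LJ. OsTON1b (Os11g0102600), a protein of the kind that organizes cortical microtubule arrays in Arabidopsis, had 13.3 ± 0.552 FPKM in stressed QJ and 30.6 ± 1.90 FPKM in stressed LJ.

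On the actin side, VLN1 averaged 0.760 ± 0.111 FPKM in stressed LJ and 8.04 ± 0.594 FPKM in control LJ, and 0.223 ± 0.0611 FPKM in control QJ. Formins nucleate and elongate actin filaments. The authors' deposited tables list 1 formin for QJ stress, as lower, and 4 for LJ stress, 3 lower and 1 higher. Between varieties 4 were listed in stressed leaves and 6 in controls, all lower in QJ, beside the shares of all genes given above. OsFH16 (Os02g0739100) averaged 17.8 ± 0.911 FPKM in stressed QJ against 81.7 ± 1.69 in control QJ, and was at 167 ± 3.31 FPKM in stressed LJ. OsFH7 (Os02g0794900), the 1 formin listed as higher, was higher under stress in LJ, with 18.9 ± 0.874 FPKM in stressed LJ and 5.80 ± 0.547 FPKM in control LJ. The myosin OsMyoXIE (Os03g0747900), an actin motor, was listed for QJ stress alone, with 8.41 ± 0.286 FPKM in stressed QJ and 3.64 ± 0.179 FPKM in control QJ.

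Likeness of pattern was measured as the root mean square difference of the 4 group means of log2(FPKM + 1), each gene centred on its own mean, against 1814 other named genes with values in all libraries that reached a mean of 5 FPKM in some group. The nearest to OsTUB1 were the gene named atp6 (Os01g0263300), at 0.0771, BC1 (Os03g0416200), a COBRA-like gene of secondary walls, at 0.116, and MFO1 (Os02g0682200), a floral MADS-box gene, at 0.134. OsTUB4 ranked 13 in nearness to OsTUB1, at 0.255, and TUB8 ranked 213, at 0.846. Nearest to OsTUB4 were OsC3H9 at 0.0838, OsUMAMIT12 at 0.0847 and OsBAG2 at 0.0915. Nearness on this scale does not mean like ratios, since the added 1 flattens low values. From stressed QJ to control LJ, OsTUB4 ran from 5.39 to 84.6 FPKM on average. OsC3H9 ran from 0.0633 to 15.1, OsUMAMIT12 from 0.0767 to 14.8 and OsBAG2 from 1.58 to 30.7. For OsTUB1 it was 2.29 to 58.3, against 0.237 to 25.6 for BC1. Nearest to TUB8 were OsGELP92 at 0.0562, CycD4, a D-type cyclin, at 0.106, and OsNek5, a NIMA-related kinase, at 0.113. The nearest to OsADF3 were farther off. They were OsLEA3-1 (Os05g0542500), a late embryogenesis abundant protein, at 0.472, the dehydrin Rab16A (Os11g0454300) at 0.626, and OsEnS-107 (Os07g0529000) at 0.650. OsADF3 was the least like of the 1814 to each of the 3 beta-tubulins, at 4.77, 4.59 and 4.28 for OsTUB1, OsTUB4 and TUB8.

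Summed over each list, markers of tissues other than the leaf blade, and of walls and division, were also highest in control LJ among the groups with values. Single genes could go the other way. Of the 19 anther and floral markers listed for LJ stress 18 were lower and 1 was higher, where 52.5% of all 7178 listed genes were lower. All 19 anther and floral markers in the tables had values in 3 groups, and they summed to 4.33 to 5.75 FPKM in control QJ, and to 19.3 to 20.4 FPKM in stressed LJ against 546 to 566 FPKM in control LJ. In control QJ RTS, EAT1, ABCG15, OsMADS7 and OsMADS13 were listed at 0 in every library, in stressed LJ RTS and ABCG15 were, and in control LJ none was. The tapetum gene OSC6 (Os11g0582500) was listed at 0 in stressed QJ and averaged 0.0367 ± 0.0635 FPKM in control QJ, and 0.597 ± 0.254 FPKM in stressed LJ against 154 ± 3.35 FPKM in control LJ.

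The 9 secondary wall markers summed to 148 to 157 FPKM in control QJ, and to 374 to 379 FPKM in stressed LJ against 749 to 776 FPKM in control LJ. The cellulose synthase OsCesA4 (Os01g0750300) alone had 1.95 ± 0.165 FPKM in stressed QJ and 4.80 ± 0.172 FPKM in control QJ, and 5.77 ± 0.845 FPKM in stressed LJ against 97.4 ± 5.39 FPKM in control LJ. Of 9 cell division genes 7 had values in 3 groups, and they summed to 0.650 to 1.21 FPKM in control QJ, and to 1.32 to 2.10 FPKM in stressed LJ against 13.5 to 14.7 FPKM in control LJ. Between controls 8 cell division genes were listed, 7 lower and 1 higher in QJ, where 71.1% of all 7844 listed genes were lower. The 1 listed between stressed groups was higher in QJ. Among the 3 groups with values, the sums of the beta-tubulins and of these 3 lists were thus highest in the same 3 libraries. The part of such cells in the beta-tubulin levels was not tested.

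**Figure D5:**
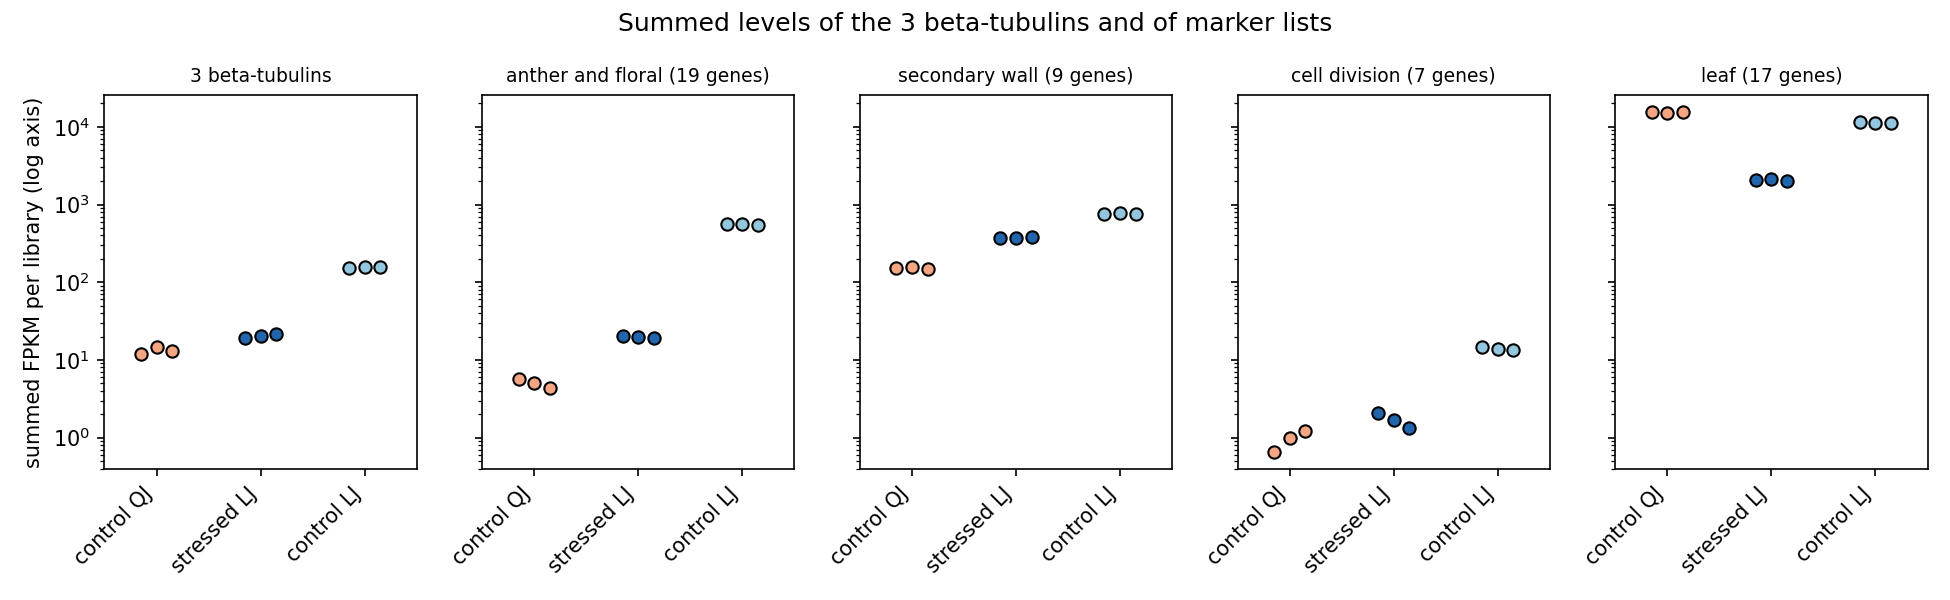
Summed FPKM per library, on a log axis, of OsTUB1, OsTUB4 and TUB8 and of the marker lists, each point being 1 library of control QJ, stressed LJ or control LJ, the groups for which all lists have values. The beta-tubulins, the anther and floral list (546 to 566 FPKM), the secondary wall list and the cell division list are all highest in control LJ among these groups, whereas the leaf list is highest in control QJ.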

How the data were processed

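FPKM values per gene and library, and their group means, were deposited by the authors in 4 tables, each for 1 pair of groups. The fold (ratio), log2 fold change, p-value and adjusted p-value columns are the authors' own. Not given in the sources used here are the aligner, build, counting and test. Samples were grouped by title, and columns were matched to titles by variety, treatment and replicate number. Of 31572 values present in more than 1 table, 0 differed.

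The 4 genes, the gene lists and the tests were chosen with earlier results of these data known. Lists were matched by symbol. After names were seen, 5 genes caught by a wrong stem were dropped and 2 added. Named genes were the 4 genes, per table the 3 largest differences each way among other cytoskeleton genes with a mean of at least 5 FPKM, up to 2 genes per marker list, and the 3 genes nearest in pattern. OsTUB5, TUB6, OsTubA3, TubA, OsADF6, OsADF7, OsADF9, OsSCAR4, KIN1 and KIN7J were named beyond this rule, to complete their families or counts, after their values were seen.

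The difference of responses was fitted with limma 3.58.1 (R 4.3.3, trended prior, two-sided, Benjamini-Hochberg over all genes tested, threshold 0.05), and tested on simulated data. Python 3.11.15, pandas 2.3.3, numpy 2.4.6 and matplotlib 3.10.9 were used otherwise. Alternatives were other pseudocounts, filters, scalings and priors, a replicate block, and leaving out each library.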

Additional observations from a re-analysis of the deposited data

Results flagged for a closer look

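The stress responses of QJ and LJ differed in limma's test of the difference itself for all 4 genes. On the log2(FPKM + 1) scale, QJ minus LJ, the values were 3.16 for OsTUB1, 2.34 for OsTUB4, 0.89 for TUB8 and -1.95 for OsADF3 (limma adjusted p of 3.62e-09, 9.18e-09, 0.000134 and 0.00130). Of all tested genes, which the authors had themselves listed for differences between groups, 66.4% passed the same test. The 3 control LJ libraries, in which the beta-tubulins were highest, are also those with the highest sums of anther and floral and of secondary wall markers, and of cell division markers among the 3 groups that have values for them (control QJ, stressed LJ and control LJ), and the part of this in the result was not tested.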

How the results depend on the processing

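The difference of responses kept its direction and its call for each of the 4 genes under all 21 alternatives. Its range was 2.60 to 3.31 for OsTUB1, 2.04 to 2.44 for OsTUB4, 0.59 to 1.00 for TUB8 and -3.32 to -1.05 for OsADF3, and the limma adjusted p was at most 8.08e-08, 1.04e-07, 0.00368 and 0.0228. Leaving out 1 library at a time gave 3.09 to 3.28, 2.26 to 2.44, 0.83 to 1.00 and -2.37 to -1.57. The alternative filter of at least 5 FPKM in at least 3 libraries admitted OsTUB1 and TUB8 only through control LJ, where they were highest. That alternative thus adds no support for these genes. The number of genes past the threshold was 3431 and ranged from 2716 to 3652. With replicate number as a block it was 3437, and the 4 values were 3.16, 2.34, 0.89 and -1.95, with no call changed. The labels state no pairing. The correlation of deviations from group means between same-numbered libraries ran from -0.108 to 0.153 over 18 pairs of libraries, and 2 of them were over 0.1. Both were between stressed and control QJ, at 0.153 and 0.108 for replicates 1 and 2, with 0.0994 for replicate 3. Of 36 pairs with different numbers 0 were over 0.1. The block was shared by all groups, so a pairing within QJ alone was not tested.

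The log2 differences between pairs of groups depend on the number added to FPKM. With 0.1 added, stressed minus control was -1.21 for TUB8 and 6.28 for OsADF3 in QJ, and -3.55, -2.78, -2.00 and 9.59 for OsTUB1, OsTUB4, TUB8 and OsADF3 in LJ. QJ minus LJ was then -1.08 for OsTUB1 and -1.15 for TUB8 in stressed leaves, and -4.39, -3.54, -1.95 and 2.87 for the 4 genes in controls. With 5 added, stressed minus control was -0.38 for TUB8 and 5.12 for OsADF3 in QJ, and -2.68, -2.38, -1.13 and 6.16 for the 4 genes in LJ. QJ minus LJ was then -0.44, -0.73 and -0.35 for OsTUB1, OsTUB4 and TUB8 in stressed leaves, and -3.04, -2.88, -1.11 and 0.61 for the 4 genes in controls.

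The median gap between FPKM ratios and the authors' fold changes (log2) was 0.145 for stress in QJ and -0.142 in LJ, and 0.354 in stressed and 0.150 in control leaves between varieties. With that shift removed, stressed minus control was -1.00 for TUB8 in QJ and -3.19, -2.56 and -1.60 for OsTUB1, OsTUB4 and TUB8 in LJ. QJ minus LJ was -1.20, -1.40, -1.16 and -0.80 for the 4 genes in stressed leaves, and -4.15, -3.54 and -1.85 for the 3 beta-tubulins in controls. No sign changed in any of these. The depth is unknown, so how far the low values of OsADF3 in controls are set by counting cannot be stated.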
